A study of Mus musculus with 14 samples.

Results

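The TRPM channel genes are described here in RNAseq of mouse retinal pigment epithelium (RPE), the pigmented cell layer behind the photoreceptors, with and without CLIC4, a chloride intracellular channel protein. The members, Trpm1, Trpm2, Trpm3, Trpm4 and Trpm7, were taken by symbol from a list of the family drawn up with earlier results of these data known, and they make 5 of the 42687 genes in the count table. All 5 had reads in the RPE preparations and passed the filter on low counts in every comparison. The remaining family members, Trpm5, Trpm6 and Trpm8, are given beside them, the first and last at or near the detection limit.

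The 14 libraries form 3 sets, each library from the RPE of both eyes of a separate 3-month-old male C57BL/6J mouse. All 7 KO libraries came from Best1-Cre+/-; Clic4f/f mice, in which the human Best1 promoter drives Cre in RPE cells after birth and deletes the floxed Clic4 alleles where Cre acts. The WT set held 3 KO and 3 wild type (WT) libraries, with neither Cre nor floxed alleles in the WT. The Ctrl set held 2 KO and 2 Clic4f/f (Ctrl) libraries, whose mice carried the floxed alleles without Cre, and the CreCtrl set held 2 KO and 2 Best1-Cre+/- (CreCtrl) libraries, whose mice carried Cre without floxed alleles. All 7 KO libraries have the same genotype label, and which set they belong to was taken from how their titles are written. Because each control genotype occurs in only 1 set, control genotype and set cannot be told apart.

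TRPM proteins are cation channels built from 4 subunits. TRPM1 and TRPM3 are close relatives. TRPM1 is the depolarizing channel of ON bipolar cells in the retina and is expressed in pigment cells, where the transcription factor MITF drives the gene, and TRPM3 is a calcium-permeable channel opened by the steroid pregnenolone sulfate and by heat. TRPM2 is a calcium-permeable channel opened by ADP-ribose in oxidative stress and is best known in myeloid cells. TRPM4 passes monovalent cations only and is opened by intracellular calcium, whereas TRPM7 joins a magnesium- and calcium-permeable pore to a kinase domain and is found in nearly all cells.

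In GRCm38 (GENCODE M21), Trpm1 (ENSMUSG00000030523) lies on the plus strand of chr7:64153835-64269775 and Trpm3 (ENSMUSG00000052387) on the plus strand of chr19:22139046-22995410, with a gene length of 856 kb. Trpm2 (ENSMUSG00000009292) is on the minus strand of chr10:77907722-77970563, Trpm4 (ENSMUSG00000038260) on the minus strand of chr7:45302632-45333780, and Trpm7 (ENSMUSG00000027365) on the minus strand of chr2:126791565-126876230. Trpm1 and Trpm3 each carry a microRNA gene on the same strand with no base in an exon, Mir211 in Trpm1 and Mir204 in Trpm3. The mature 5p arms are shown because the transcripts of these members carry them and the arms share their seed. They come from RefSeq (GRCm38.p6), at chr19:22750610-22750631 and chr7:64205831-64205852, are written 5′ to 3′, and have the seed, bases 2 to 8, in capitals.
mmu-miR-204-5p (in Trpm3): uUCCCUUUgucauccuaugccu
mmu-miR-211-5p (in Trpm1): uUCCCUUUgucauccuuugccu
Both arms have the seed UCCCUUU and differ by the substitution A17U, counted from the 5′ end with the miR-204-5p base first. Neither microRNA gene had a row in the poly(A) count table, so the host transcripts were measured and the microRNAs were not analysed here.

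Promoter windows, from 250 bases before to 50 bases after a RefSeq start (GRCm38.p6), were available for Trpm1 and Trpm3 with 2 starts each and for Trpm2 and Trpm7 with 1 start each. They were searched on both strands for CACGTG, which reads the same on both strands, and for CATGTG, whose reverse complement is CACATG. Both are letters of the E-box type that MITF and related factors are known to bind. Of 32851 mouse promoter windows, 7.15% held CACGTG, 14.2% held CATGTG and 20.4% held either. The pair of Trpm1 windows is shown because Pmel, a pigment gene, was among the genes most like it, and the Trpm7 window because it held the most CACGTG. Motif letters are in capitals, and each window is written 5′ to 3′ on the strand of the gene.
Trpm1, chr7:64153585-64153884: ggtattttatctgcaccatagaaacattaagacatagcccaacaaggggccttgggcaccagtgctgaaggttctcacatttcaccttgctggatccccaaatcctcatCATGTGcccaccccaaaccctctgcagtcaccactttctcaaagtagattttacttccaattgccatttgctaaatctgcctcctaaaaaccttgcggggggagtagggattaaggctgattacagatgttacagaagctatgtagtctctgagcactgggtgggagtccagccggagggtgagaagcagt
Trpm1, chr7:64185209-64185508: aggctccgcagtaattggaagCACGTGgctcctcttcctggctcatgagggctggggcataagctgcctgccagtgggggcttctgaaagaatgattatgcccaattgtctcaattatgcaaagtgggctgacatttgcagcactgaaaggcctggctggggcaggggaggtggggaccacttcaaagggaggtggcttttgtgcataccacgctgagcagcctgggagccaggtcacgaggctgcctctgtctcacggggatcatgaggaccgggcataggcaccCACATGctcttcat
Trpm7, chr2:126876212-126876511: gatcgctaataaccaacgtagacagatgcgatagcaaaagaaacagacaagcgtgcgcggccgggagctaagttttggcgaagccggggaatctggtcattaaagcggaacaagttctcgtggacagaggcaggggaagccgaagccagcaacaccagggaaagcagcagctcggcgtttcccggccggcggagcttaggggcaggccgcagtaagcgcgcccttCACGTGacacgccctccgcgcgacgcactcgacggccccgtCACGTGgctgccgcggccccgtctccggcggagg
The upstream Trpm1 window held 1 CATGTG and the inner window, which starts inside the annotated gene, held 1 CACGTG and 1 CACATG, whereas the Trpm7 window held 2 CACGTG. The Trpm2 window held 1 CACATG, and neither Trpm3 window held either motif. These matches are letters in a window and do not show binding.

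Library totals ran from 9828293 to 32384166 counts, with the smallest in WT. Levels are in CPM, counts brought to a common library total and scaled with TMM factors over all 14 libraries. Clic4, the targeted gene, was at 218 to 230 CPM in the 3 WT, 62.1 and 71.5 in the Ctrl, 86.6 and 108 in the CreCtrl and 9.79 to 33.9 in the 7 KO libraries, so every KO library lay below every control library. The 10 RPE markers summed to 15367 to 22685 CPM in WT, 46113 to 57170 in Ctrl and CreCtrl and 70849 to 81791 in KO, and none of the 10 was at 0 throughout, although Best1 itself averaged 1.38 to 4.47 CPM in the 6 groups. The 10 fibroblast markers ran the other way, from 7844 to 8193 CPM in WT and 1268 to 2903 in Ctrl and CreCtrl to 124 to 826 in KO. In bulk RNA of this kind, fewer cells of a type and less RNA per cell cannot be told apart.

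Trpm3 was the most abundant member by length in all 14 libraries. Per kilobase of merged exon (RPKM), Trpm3 was followed by Trpm7 and Trpm1, then Trpm4, then Trpm2 in every library. Trpm7 stood above Trpm1 in 9 libraries and below it in 5, and with the length of the longest transcript in place of merged exons Trpm1 stood above Trpm7 in 12, so the order of these neighbours was not settled. Of the RPKM summed over the 5 members, Trpm3 took 50.9% to 54.0% in WT, 52.6% to 60.7% in Ctrl and CreCtrl and 62.9% to 77.0% in KO. Its lowest KO share was above its highest control share. Trpm4 took 3.69% to 5.77% of this sum in WT, 0.933% to 1.56% in Ctrl and CreCtrl and 0.345% to 0.763% in KO.

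**Figure D1:**
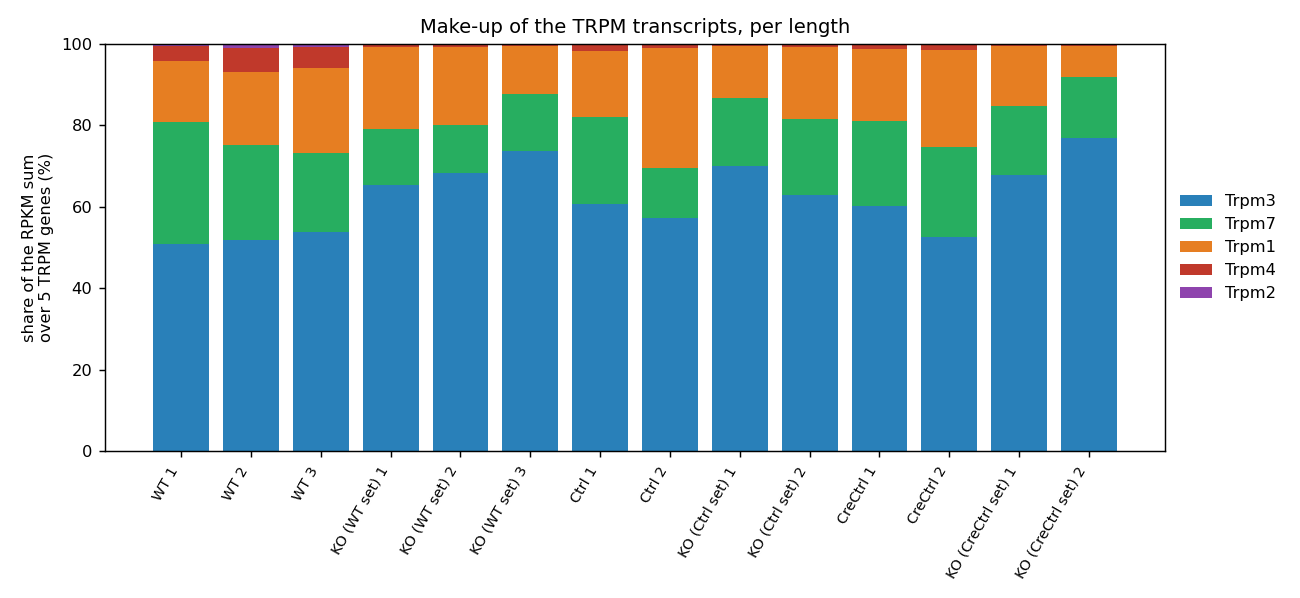
Share of the RPKM sum over the 5 TRPM genes (%, vertical axis) in each of the 14 libraries (bars), with the genes as colours. Trpm3 makes the largest part of every bar, from 50.9% in a WT library to 77.0% in a KO library, and Trpm4 is visible mainly in WT.

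The members differed in direction. In KO vs WT, Trpm1 and Trpm3 rose and Trpm4 fell, so 3 of 5 members passed the test (adjusted P under 0.05, edgeR quasi-likelihood test with Benjamini-Hochberg adjustment over all genes tested), where 35.1% of all 15428 genes tested did. In KO vs CreCtrl, 2 of 5, Trpm2 and Trpm4, passed and both fell, against 15.8% of all genes (2529 of 15963). This rested on single libraries, since 1147 of 16613 genes passed without CreCtrl replicate 2 and 1279 of 16817 without KO replicate 2 of that set, with no member among them in either case, and 5157 of 16630 without CreCtrl replicate 1, with 2 members. In KO vs Ctrl, 0 of 5 passed by edgeR, and 0% of the 15287 genes did, although 1846 genes had an unadjusted P under 0.05 and DESeq2 called 1191 genes, among them Trpm4. Without Ctrl replicate 1 or 2, edgeR called 512 and 26 genes there and no member. With all 7 KO against all 7 controls and set as a term, Trpm3 rose and Trpm4 fell, 2 of 5 against 36.2% of all genes. The median log2 fold change of the 5 was -0.05 against WT, 0.13 against Ctrl, -0.80 against CreCtrl and -0.02 in the 7 against 7, beside -0.08, 0.01, -0.02 and -0.02 over all genes tested. Scaled by library size alone, the all-gene medians became -0.32, -0.11, -0.24 and -0.29, so fold changes here are relative to the TMM centre, near which the median gene lies.

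**Figure D2:**
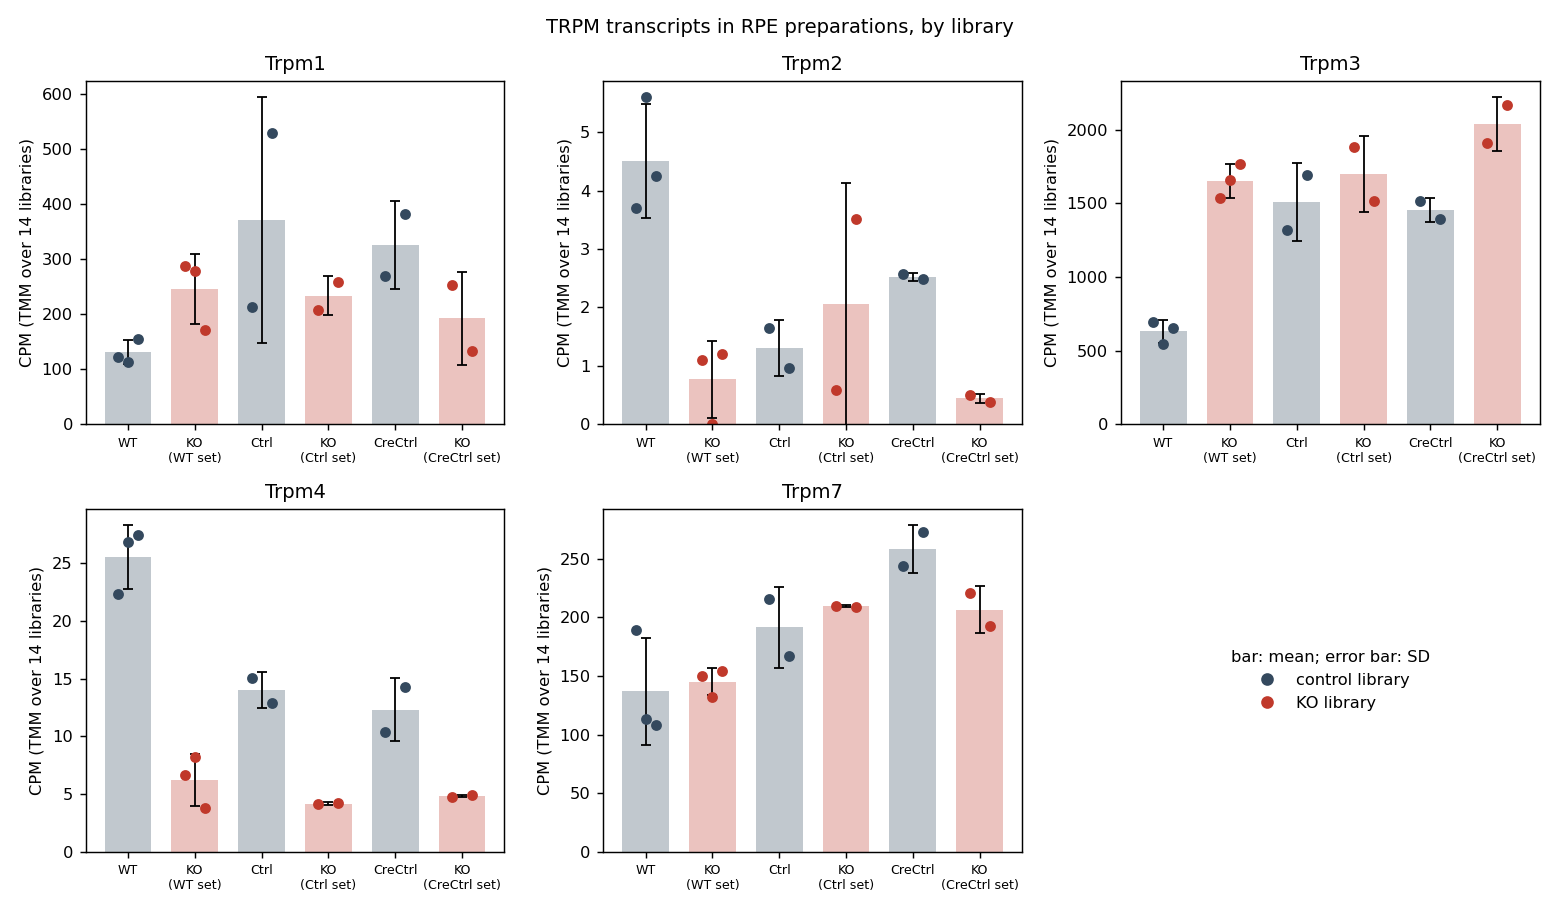
CPM (vertical axes, from 0) of the 5 TRPM genes in the 6 groups (horizontal axes), with a point for each library, bars for means and error bars for SD. Trpm4 is lower in every KO library, 3.74 to 8.18 CPM, than in every control library, 10.4 to 27.4 CPM, and Trpm3 is lowest in the 3 WT libraries.

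Trpm3, on chr19, was the clearest gain in the WT set. Its level was 695, 544 and 656 CPM in WT and 1534, 1657 and 1766 CPM in the KO libraries of that set. The groups did not overlap, and Trpm3 was 2.37-fold higher in KO (log2 fold change 1.25 ± 0.14 SE, adjusted P = 0.000287, edgeR). In the Ctrl set it was 1321 and 1696 CPM in Ctrl and 1884 and 1515 CPM in KO, which overlapped (log2 fold change 0.17 ± 0.29, adjusted P = 0.928, edgeR). In the CreCtrl set it was 1515 and 1396 CPM in CreCtrl and 1913 and 2169 CPM in KO. Both KO libraries were higher there, but the log2 fold change of 0.46 ± 0.20 did not pass by edgeR (adjusted P = 0.143). DESeq2 gave an adjusted P of 0.0213 for this difference.

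Trpm3 was lowest in WT. The group means ran from 2041 ± 181 CPM (SD, n = 2) in KO of the CreCtrl set through 1700 ± 261 (n = 2), 1652 ± 116 (n = 3), 1508 ± 265 (n = 2) and 1455 ± 84.2 (n = 2) in KO of the Ctrl set, KO of the WT set, Ctrl and CreCtrl to 632 ± 78.2 (n = 3) in WT. From KO of the Ctrl set down to CreCtrl, neighbouring groups overlapped in range, whereas WT lay below all the others. The KO effect on Trpm3 was larger in the WT set than in the Ctrl set by 1.22 ± 0.26 on the log2 scale, a difference that passed the test of the interaction (adjusted P = 0.0216, edgeR; 5.15% of 17662 genes passed). This call was lost without Ctrl replicate 2, KO replicate 2 of the Ctrl set or KO replicate 2 of the WT set, with adjusted P of 0.14, 0.108 and 0.052, where the genes that passed went from 909 to 138, 100 and 361. Without Ctrl replicate 1 it was 0.00919, with 1459 genes. Against the CreCtrl set the difference was 0.90 ± 0.26 (adjusted P = 0.107, edgeR, and 0.0116, DESeq2; 1.49% of genes passed by edgeR), and between the Ctrl and CreCtrl sets 0% of genes passed. With 7 KO against 7 controls, Trpm3 was 1.72-fold higher in KO (log2 fold change 0.78 ± 0.20, adjusted P = 0.0072, edgeR). This fit assumes a single KO effect for all sets, whereas the effects on Trpm3 differed between the WT and Ctrl sets by the interaction above.

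Most RPE markers rose beside Trpm3 in KO vs WT. Of the 10, 9 passed as higher in KO vs WT, with a list median of 1.69 on the log2 scale against 1.25 for Trpm3, 1 of 10 passed in KO vs CreCtrl and 0 of 10 in KO vs Ctrl. The remaining marker, Best1, was at -1.82 ± 0.66, -1.11 ± 0.43 and 0.08 ± 0.74 in the same order and did not pass. In the same comparisons, 35.1%, 15.8% and 0% of all genes tested passed in either direction. As higher alone, 2490 of 15428, 575 of 15963 and 0 of 15287 genes passed. The part of this list in the Trpm3 result was not tested. The genes whose log2 CPM followed Trpm3 most closely over the 14 libraries were Gpam (Pearson's r = 0.991), an acyltransferase of triglyceride synthesis, Dusp4 (0.988), a phosphatase of MAP kinases, and Kif1a (0.987), a kinesin motor. These r describe 17661 genes over libraries that share their set differences, and they carry no test. Of the genes around Trpm3, the downstream neighbour Klf9, a transcription factor, fell by 2.00 ± 0.14 in KO vs WT (adjusted P = 3.83e-05, edgeR), and the upstream neighbour Cemip2, a hyaluronan-degrading enzyme, fell by 1.26 ± 0.34 in the 7 against 7 (adjusted P = 0.0106, edgeR) and did not pass within a set. The 2 antisense genes that share 277 and 351 bases with Trpm3 exons, Gm27151 and C330002G04Rik, averaged at most 0.0522 CPM in any group.

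Trpm4 was the member whose KO libraries lay below the controls in all 3 sets. Its level was 22.3, 26.8 and 27.4 CPM in WT and 6.60, 8.18 and 3.74 CPM in KO of the WT set. In the Ctrl set it was 15.1 and 12.9 CPM in Ctrl and 4.11 and 4.24 CPM in KO, and in the CreCtrl set 10.4 and 14.2 CPM in CreCtrl and 4.75 and 4.90 CPM in KO. The highest KO library, 8.18 CPM, was below the lowest control library. The group means were 25.5 ± 2.77 CPM in WT, above all others, 13.97 ± 1.57 in Ctrl and 12.3 ± 2.71 in CreCtrl, which overlapped, and 6.18 ± 2.25, 4.83 ± 0.106 and 4.17 ± 0.0905 in KO of the WT, CreCtrl and Ctrl sets (SD, n = 2 or 3). Of 14423 genes tested in all 3 sets, 10.6% were lower in every KO than in every control library of each set.

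The fall of Trpm4 was 4.57-fold in KO vs WT (log2 fold change -2.19 ± 0.32, adjusted P = 0.00105, edgeR) and 2.61-fold in KO vs CreCtrl (-1.38 ± 0.28, adjusted P = 0.0228). The latter call was lost without CreCtrl replicate 2 (adjusted P = 0.0665) and without KO replicate 2 of that set (0.0584), and in a fit of all 14 libraries (0.0536). In KO vs Ctrl the value was 3.35-fold lower (-1.74 ± 0.38), which did not pass by edgeR (adjusted P = 0.134), whereas DESeq2 and the fit of all 14 libraries gave 0.00193 and 0.0213. With 7 against 7, Trpm4 fell by 1.76 ± 0.20 on the log2 scale (adjusted P = 4.27e-05, edgeR). The KO effect did not pass as different between any 2 sets, with differences of -0.31 ± 0.46, -0.70 ± 0.46 and -0.39 ± 0.50 (WT less Ctrl, WT less CreCtrl and Ctrl less CreCtrl sets).

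**Figure D3:**
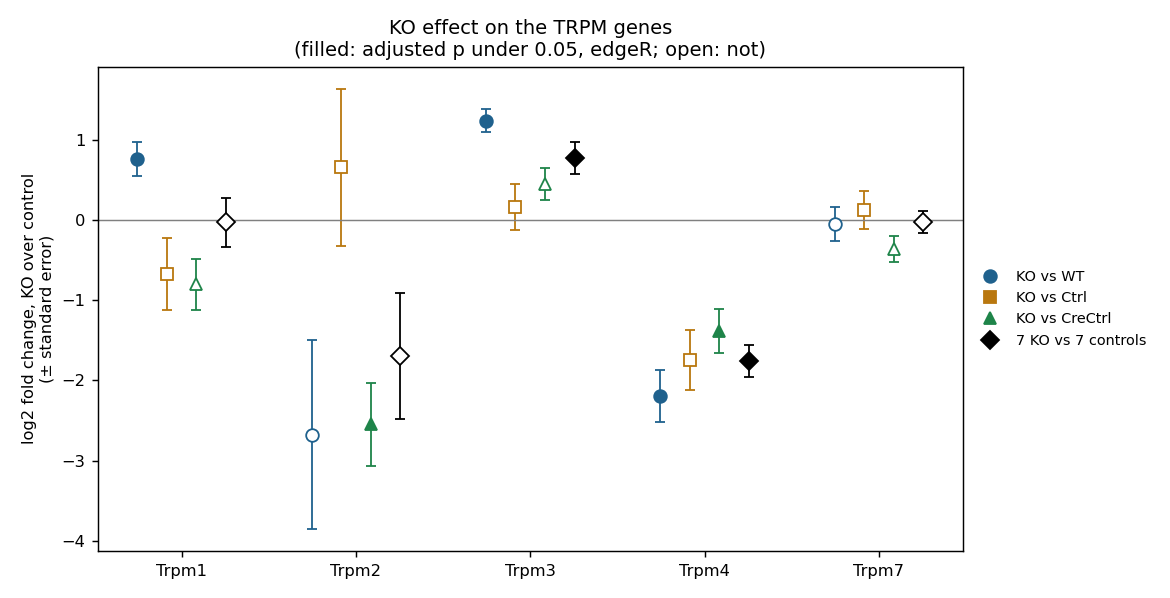
Log2 fold change of KO over control (vertical axis, ± SE) for the 5 TRPM genes (horizontal axis) in the 3 sets and in 7 KO against 7 controls (symbols), filled where the adjusted P was under 0.05. Trpm4 is below 0 in all 4 comparisons, and Trpm1 is above 0 in KO vs WT and below it against Ctrl and CreCtrl.

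Markers of other cell types moved with Trpm4. All 10 fibroblast markers passed as lower in KO vs WT, 9 of 10 in KO vs CreCtrl and 0 of 10 in KO vs Ctrl, where their median was nevertheless -2.96 on the log2 scale, and none was at 0 in every library. Endothelial markers passed as lower for 9, 8 and 0 of 10 and pericyte and smooth muscle markers for 4, 4 and 0 of 7 in the same order. Of all genes tested, 35.1%, 15.8% and 0% passed in either direction in these comparisons. As lower alone, 2929 of 15428, 1954 of 15963 and 0 of 15287 genes passed. All 17 immediate-early genes passed as lower in KO vs WT and in KO vs CreCtrl, with sums of 5584 to 18180 CPM in the 7 controls and 400 to 2605 CPM in the 7 KO. The part of these lists in the Trpm4 result was not tested. The genes most like Trpm4 over the 14 libraries were Cntln (r = 0.987), coding for centlein, Ptprs (0.985), a receptor tyrosine phosphatase, and Rbfox2 (0.984), a splicing regulator.

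Abcc8, the SUR1 subunit reported to join TRPM4, was too low to be tested, with a mean of at most 0.384 CPM in any group. Next to Trpm4, Slc6a21 had no reads and Hrc averaged at most 0.767 CPM. Rpl14-ps1, a pseudogene on the other strand in the gene body, averaged 1.74 to 4.52 CPM, shared no exon base with Trpm4, and did not pass in any comparison.

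**Figure D4:**
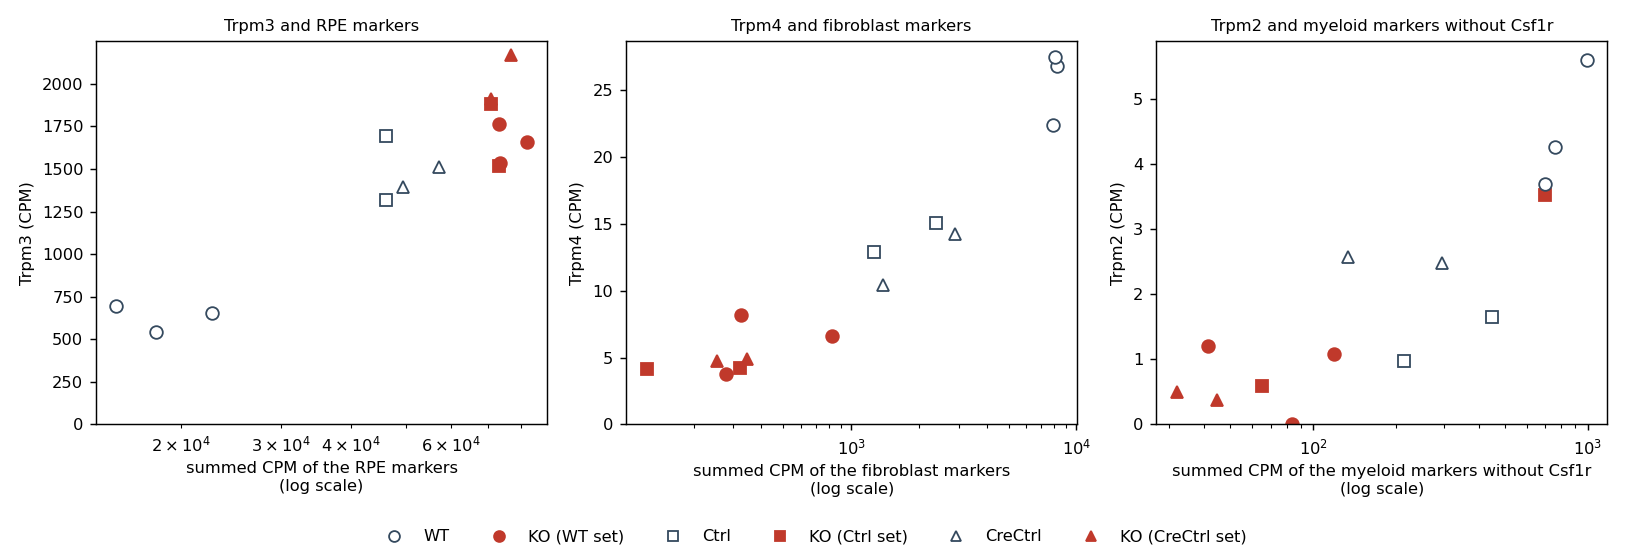
Levels of Trpm3, Trpm4 and Trpm2 (CPM, vertical axes) against the summed CPM of the RPE, fibroblast and myeloid markers (horizontal axes, log scale; Csf1r left out of the last) in each of the 14 libraries, open for controls and filled for KO. Trpm4 is highest in the WT libraries with 7844 to 8193 CPM of fibroblast markers, and the KO library with 3.52 CPM of Trpm2 lies beside the WT libraries in myeloid markers.

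Trpm2 was the rarest of the members, with at most 65 counts in a library. It was at 3.70, 5.60 and 4.25 CPM in WT, from 45, 65 and 62 counts, and at 1.09, 0 and 1.20 CPM in KO of that set, from 16, 0 and 18 counts. The groups did not overlap, but the log2 fold change of -2.68 ± 1.18 did not pass by edgeR (adjusted P = 0.116), whereas DESeq2 gave 0.0331. In the CreCtrl set it was at 2.57 and 2.48 CPM in CreCtrl and 0.496 and 0.382 CPM in KO. This 5.85-fold fall passed by edgeR (log2 fold change -2.55 ± 0.52, adjusted P = 0.0233), and the call was lost without CreCtrl replicate 2 (0.07) or KO replicate 2 of that set (0.114) and in the fit of all 14 libraries (0.238).

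In the Ctrl set, Trpm2 was at 1.65 and 0.967 CPM in Ctrl and at 0.587 and 3.52 CPM in KO. The KO libraries lay on either side of both Ctrl libraries (log2 fold change 0.66 ± 0.98, adjusted P = 0.914, edgeR), and without KO replicate 2 it was -1.14. The 10 myeloid markers without Csf1r, which was high in every group, summed to 696 CPM in this library, 31.9 to 119 CPM in the other 6 KO, 697 to 991 CPM in WT and 134 to 448 CPM in Ctrl and CreCtrl. Of the full list of 11 markers, 10 passed as lower and Csf1r as higher in KO vs WT, 8 passed as lower in KO vs CreCtrl and 0 in KO vs Ctrl, and their part in the Trpm2 values was not tested. For all genes tested the shares were 35.1%, 15.8% and 0%. Leaving Csf1r out was chosen after its values were seen. With 7 against 7, Trpm2 did not pass (-1.70 ± 0.78, adjusted P = 0.106, edgeR), and without that library (-2.23, adjusted P = 0.0151) or without Ctrl replicate 2 (-2.09, 0.0484) it did.

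By group mean, Trpm2 was highest in WT, 4.51 ± 0.978 CPM (SD, n = 3), above CreCtrl at 2.52 ± 0.0634 (n = 2), and from there down each group overlapped the next. Over the 14 libraries Trpm2 was most like Gpsm3 (r = 0.970), a regulator of G protein signalling, Elf4 (0.963), an ETS transcription factor, and Hk3 (0.962), a hexokinase known from myeloid cells. Trpm2's neighbours Lrrc3 and 1810043G02Rik did not pass in any comparison, and the snoRNA genes Gm22394 and Gm22871, which share 44 and 47 bases with its exons, had no row in the table. Of 12 genes that make, cut or remove ADP-ribose, the ligand of TRPM2, 2 rose and 2 fell in KO vs WT, 1 fell in KO vs CreCtrl and 0 passed in KO vs Ctrl. Among all genes tested, 35.1%, 15.8% and 0% passed there. Macrod1, which removes ADP-ribose from proteins, rose by 1.82 ± 0.16 in KO vs WT (adjusted P = 9.62e-05, edgeR), as did Oard1, of similar function, by 0.63 ± 0.20 (0.0348), while Parp2, a polymerase of ADP-ribose chains, fell by 0.69 ± 0.20 (0.0267). Cd38, an ectoenzyme that makes ADP-ribose and is itself used as an immune cell marker, fell by 1.95 ± 0.66 in KO vs WT, and its relative Bst1 fell by 3.26 ± 0.66 in KO vs CreCtrl (adjusted P = 0.0495 and 0.0237, edgeR).

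Trpm1 rose in the WT set, and its other comparisons did not pass by edgeR with every library, the standard filter on low counts and no term for replicate number. It was at 122, 113 and 155 CPM in WT and at 286, 278 and 171 CPM in KO of the WT set, without overlap. The 1.70-fold rise passed by edgeR (log2 fold change 0.77 ± 0.21, adjusted P = 0.0223), and the adjusted P was 0.0583 to 0.0819 without WT replicate 1, WT replicate 2, KO replicate 1 or KO replicate 2, and 0.0837 when scaled by library size alone. In the Ctrl set Trpm1 was at 212 and 528 CPM in Ctrl and at 208 and 258 CPM in KO. The Ctrl libraries lay far apart, and the log2 fold change of -0.67 ± 0.45 (adjusted P = 0.731, edgeR) became 0.13 without Ctrl replicate 2. In the CreCtrl set it was at 268 and 382 CPM in CreCtrl and at 252 and 133 CPM in KO, lower in both KO libraries with no call by edgeR (-0.80 ± 0.31, adjusted P = 0.107), while DESeq2 gave 0.0331, edgeR without KO replicate 1 of that set 0.0172 and edgeR over all genes with at least 1 count 0.00361. Over all alternatives the adjusted P there ran from 0.00361 to 0.506.

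The KO effect on Trpm1 was higher in the WT set than in the Ctrl set by 1.58 ± 0.52 and than in the CreCtrl set by 1.67 ± 0.52, and neither difference passed by edgeR (adjusted P = 0.0966 and 0.133), whereas DESeq2 gave 0.0438 and 0.0246 and edgeR without Ctrl replicate 1 gave 0.0141 for the former. With all genes of at least 1 count kept, edgeR gave 1.79e-06 and 2.66e-06, so both calls depend on the filter, and over all alternatives the adjusted P reached 0.555 and 0.5. Group means were 370 ± 223 CPM in Ctrl, 325 ± 80.5 in CreCtrl, 245 ± 64.3, 233 ± 35.3 and 192 ± 84.4 in KO of the WT, Ctrl and CreCtrl sets and 130 ± 21.8 in WT (SD, n = 2 or 3). Every neighbouring pair in this order overlapped in range. With 7 against 7 the log2 fold change was -0.02 ± 0.31 (adjusted P = 0.963, edgeR).

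Pmel, a pigment gene, was among the genes most like Trpm1. Over the 14 libraries, the genes most like it were BC016579 (r = 0.926), Pmel (0.907), which codes for the fibril protein of melanosomes, and Noct (0.846), a circadian phosphatase. Trpm1 was highest in Ctrl replicate 2, at 528 CPM, where the 13 pigment cell genes also had their highest sum, 6885 CPM. The mean of Pmel in Ctrl was 475 ± 382 CPM (SD, n = 2). The part of this library in these r was not tested. Pmel itself showed a rise of 1.03 ± 0.18 in KO vs WT (adjusted P = 0.00276, edgeR), a value of -1.67 ± 0.59 in KO vs Ctrl (0.327) and a fall by 1.17 ± 0.18 in KO vs CreCtrl (0.00913). Of 13 pigment cell genes, 9 rose and 0 fell in KO vs WT, 3 rose and Pmel fell in KO vs CreCtrl, and 0 passed in KO vs Ctrl. All genes tested passed at 35.1%, 15.8% and 0% in the same order. Oca2 and Slc24a5, melanosome transporters, Gpr143, a melanosome receptor, and Dct, an enzyme of melanin synthesis, rose by 2.83 ± 0.12, 2.11 ± 0.15, 2.46 ± 0.20 and 2.04 ± 0.17 in KO vs WT, and Oca2 and Gpr143 rose again in KO vs CreCtrl by 1.04 ± 0.21 and 0.83 ± 0.15. Mitf, the regulator, was at 0.19 ± 0.12, 0.31 ± 0.21 and 0.01 ± 0.16 against WT, against Ctrl and against CreCtrl, which did not pass, and at 0.24 ± 0.08 in the 7 against 7, which did (adjusted P = 0.0363, edgeR). Melanocyte and Schwann cell markers, which would mark choroidal pigment cells and nerve, passed for 4 of 6 in KO vs WT, 2 in each direction, and for 2 of 6, both lower, in KO vs CreCtrl.

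Proteins that work with TRPM1 in ON bipolar cells were also read. Of 10 genes of this cascade, 2 rose in KO vs WT, Lrit3 (2.29 ± 0.38, adjusted P = 0.00192), a membrane protein needed for the channel at the synapse, and Gnao1 (1.35 ± 0.14, adjusted P = 0.000171), the G protein subunit of the receptor pathway that closes it. In KO vs CreCtrl, 2 fell, Rgs11, a regulator that speeds G protein shutoff, by 1.39 ± 0.24 and Rgs9bp, which anchors such regulators in the membrane, by 2.75 ± 0.71 (adjusted P = 0.0139 and 0.0434, edgeR). Each count was of 8 genes tested, beside 35.1% of all genes in KO vs WT and 15.8% in KO vs CreCtrl. Grm6, the glutamate receptor that defines these cells, averaged at most 1.28 CPM in any group. Of 10 rod markers, 9 also fell in KO vs CreCtrl, where CreCtrl replicate 2 had the highest rod sum, 4458 CPM. Their part in the Rgs9bp value was not tested. Next to Trpm1, Mtmr10 rose by 0.71 ± 0.15 in KO vs WT (adjusted P = 0.00669, edgeR), and Klf13 did not pass in any comparison. Gm44719 and Gm44722, within the gene, averaged at most 0.937 CPM in any group.

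Trpm7 did not pass in any comparison. It was at 190, 113 and 108 CPM in WT and 150, 132 and 154 CPM in KO of the WT set, which overlapped (log2 fold change -0.05 ± 0.21, adjusted P = 0.882, edgeR). In the Ctrl set it was at 216 and 167 CPM in Ctrl and 210 and 209 CPM in KO (0.13 ± 0.24, adjusted P = 0.940). In the CreCtrl set it was at 244 and 273 CPM in CreCtrl and 221 and 192 CPM in KO, lower in both KO libraries (-0.36 ± 0.17, adjusted P = 0.158), and the 7 against 7 gave -0.02 ± 0.14 (adjusted P = 0.932). The group means were 258 ± 20.5 CPM in CreCtrl, 210 ± 0.735 and 207 ± 20.2 in KO of the Ctrl and CreCtrl sets, 192 ± 34.6 in Ctrl, 145 ± 11.6 in KO of the WT set and 137 ± 45.6 in WT (SD, n = 2 or 3). CreCtrl lay above all the others, and of the rest only Ctrl and KO of the WT set, as neighbours, did not overlap. The genes most like it were Xpo1 (r = 0.970), the nuclear export receptor, Wdr78 (0.948), a dynein protein of cilia, and Srpk2 (0.946), a splicing kinase. Its neighbours Usp50 and Sppl2a did not pass in any comparison.

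Groups of KO and control libraries did not overlap for 4 of 5 members in KO vs WT, 1 of 5 (Trpm4) in KO vs Ctrl and 5 of 5 in KO vs CreCtrl, where 53.2%, 41.0% and 72.1% of all genes tested did not overlap.

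TRPM7 passes magnesium, and none of the other magnesium transport genes passed as lower. Of 17 genes, 5 of 15 tested rose in KO vs WT, 4 of 15 in KO vs CreCtrl, 0 of 15 in KO vs Ctrl and 7 of 16 in the 7 against 7, and 0 fell in any of these. Over all genes tested, 35.1%, 15.8%, 0% and 36.2% passed in either direction, in the same order. As higher alone, 2490 of 15428, 575 of 15963, 0 of 15287 and 3276 of 17662 genes passed. Nipa1, a magnesium transporter, rose by 1.59 ± 0.17, from 15.1 to 50.3 CPM, in KO vs WT (adjusted P = 0.000189, edgeR) and by 1.17 ± 0.30 in KO vs CreCtrl (0.0413). Slc41a2, a magnesium transporter of the SLC41 family, rose by 1.14 ± 0.23 and 1.07 ± 0.24 (0.00511 and 0.0322). Mrs2, the magnesium channel of mitochondria, rose by 1.76 ± 0.31 in KO vs WT (0.00238) and stood at 0.90 ± 0.26 in KO vs CreCtrl (0.0546). Nipal2, of the same family as Nipa1, rose by 0.92 ± 0.21 and 0.65 ± 0.17 (0.00929 and 0.0455). The list median was 0.29 against WT, 0.12 against Ctrl and 0.48 against CreCtrl, beside -0.08, 0.01 and -0.02 over all genes. The part of the RPE and other cell type markers in these values was not tested.

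**Figure D5:**
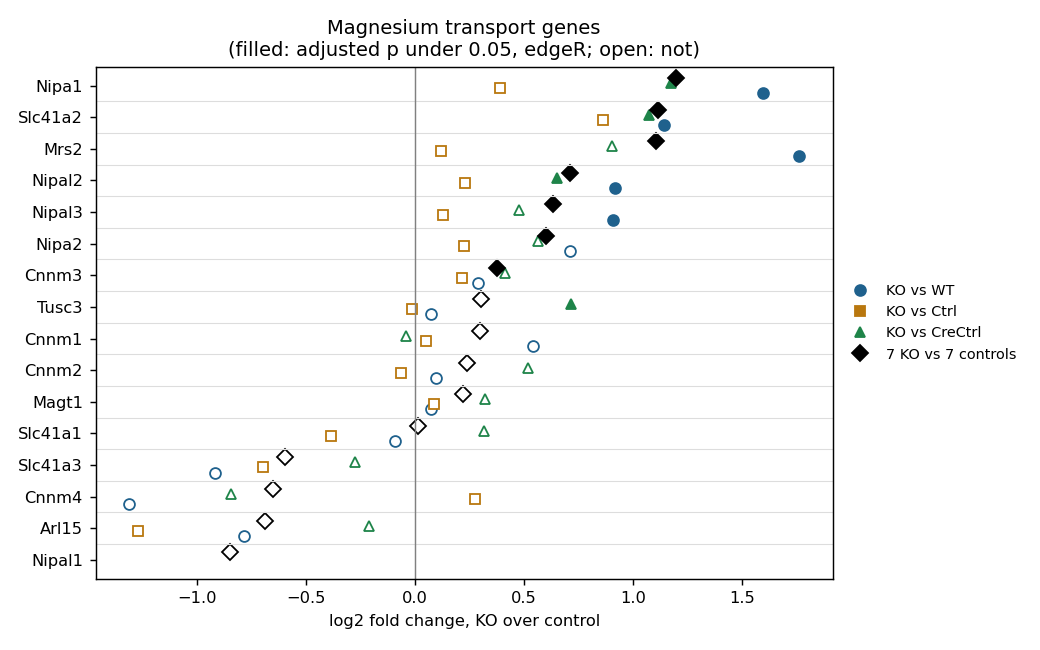
Log2 fold change of KO over control (horizontal axis) for the magnesium transport genes (rows) in the 3 sets and in 7 KO against 7 controls (symbols), filled where the adjusted P was under 0.05. All filled symbols lie above 0, with Mrs2 at 1.76 in KO vs WT the farthest.

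G protein beta and gamma subunits, which are known to close TRPM3 and TRPM1, split. Of 9 tested, 3 rose and 4 fell in KO vs WT, 2 of 10 fell in KO vs CreCtrl and 0 of 9 passed in KO vs Ctrl. The shares over all genes tested were 35.1%, 15.8% and 0%. Gnb4 fell by 3.64 ± 0.38 in KO vs WT (adjusted P = 0.000199, edgeR) and by 3.05 ± 0.38 in KO vs CreCtrl (0.00621), from 31.2 and 7.96 CPM in the controls. Gng5 rose by 1.17 ± 0.19 in KO vs WT (0.00176), as did Gng7 by 0.85 ± 0.25 (0.0298), whereas Gng12 fell by 1.32 ± 0.20 (0.00119). The part of the cell type markers in these values was not tested.

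Among the remaining family members, Trpm6, a magnesium channel of kidney and gut, was at 1.60 to 9.04 CPM and did not pass in any comparison. Trpm5, known from taste cells, was at 0 to 2.04 CPM and was too low to enter KO vs Ctrl and KO vs CreCtrl. It did not pass by edgeR in KO vs WT (adjusted P = 0.654) or in the 7 against 7 (-1.04 ± 1.21, adjusted P = 0.5475). For Trpm5, an exact permutation test within sets gave a two-sided p of 0.308 over 720 arrangements (smallest possible 0.00278). The KO mean was 0.375 ± 0.421 CPM and the control mean 0.806 ± 0.768 CPM (SD, n = 7 each). Trpm8, the cold channel, had 0 counts in every library, which allows up to 0.0926 to 0.305 CPM at 3 counts a library. Of 20 other TRP channels, 1 rose and 2 fell of 9 tested in KO vs WT, 3 fell of 10 in KO vs CreCtrl and 0 of 10 passed in KO vs Ctrl. These comparisons called 35.1%, 15.8% and 0% of all genes tested. Trpv4, an osmotically gated calcium channel known in RPE, rose from 81.4 to 184 CPM in KO vs WT (1.03 ± 0.18, adjusted P = 0.00243, edgeR). Pkd2, polycystin-2, fell by 1.62 ± 0.20 in KO vs WT (0.000412), from 235 to 84.1 CPM. Trpv2, common in myeloid cells, fell by 4.22 ± 1.24 in KO vs WT (0.0285) and by 3.98 ± 0.58 in KO vs CreCtrl (0.00868) and was at -0.47 ± 1.04 in KO vs Ctrl (0.953). Mcoln3, an endolysosomal channel, fell by 4.62 ± 1.04 in KO vs CreCtrl (0.0313), from a mean of 1.02 CPM. The part of the cell type markers in the values of these other TRP channels was not tested.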

How the data were processed

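RPE RNA of 14 mice was sequenced from stranded poly(A) libraries. The authors deposited raw counts per Ensembl gene. The submitters' processing notes name bcl2fastq 2.19, STAR 2.5.2, HTSeq 0.11.2, Cufflinks 2.1.1 and GRCm38. The strand setting and annotation release of the counting are not given in the sources used here, so reads of a gene and an antisense partner may not be told apart. Of 42687 genes, 42329 were found in GENCODE M21, which gave names, positions and lengths.

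Counts were tested with edgeR 4.0.16 in R 4.3.3 (TMM, filterByExpr, quasi-likelihood test, Benjamini-Hochberg over all genes tested, adjusted P under 0.05), within each set, over 7 KO and 7 controls with set as a term, and as an interaction of KO and set. The fit of 7 KO and 7 controls assumes a single KO effect for all sets. Replicates are separate mice. CPM are scaled by TMM over all 14 libraries and RPKM divide them by merged exon length, while fold changes use the TMM of each fit. The SE of an edgeR log2 fold change is its absolute value divided by the square root of the F statistic, and is approximate. Correlations use log2 CPM with a prior count of 2. Alternatives were DESeq2 1.42.0, other scalings and filters, a replicate block, a fit of all 14 libraries and leaving out each library. By edgeR, the within-set tests, the 7 against 7 and the WT and Ctrl interaction were first run on simulated counts with 200 genes changed. They recovered 181 (KO vs WT), 127 (KO vs Ctrl), 139 (KO vs CreCtrl), 200 (7 against 7) and 55 (interaction). The other interactions and DESeq2 were not run on simulated counts. The exact permutation test exchanged labels within sets. Limits at 0 counts (3 counts) cover counting error only.

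The members, the related lists and the marker lists were chosen with earlier results of these data known. Named genes are the members, Clic4, their neighbours, up to 4 genes of a related list that passed, by adjusted P, and the 3 genes most correlated with each member. Best1, Csf1r, Grm6, Mitf, Abcc8 and Bst1 were named after their values were seen. The other genes of the list of TRPM4 partners are not reported here.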

Additional observations from a re-analysis of the deposited data

Results flagged for a closer look

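Trpm2 in KO replicate 2 of the Ctrl set, at 3.52 CPM, stood apart from the other 6 KO libraries (0 to 1.20 CPM) by Dixon's test over the 7, with a gap to the next of 0.658 of their range. Chance alone takes a group past the limit of this test in about 1 in 20 groups, and 5 members were looked at. The KO effect on Trpm3 differed between the WT and Ctrl sets by 1.22 on the log2 scale by a test of the difference itself (adjusted P = 0.0216, edgeR), from 1.25 in the WT set to 0.17 in the Ctrl set. The KO means were 1652 and 1700 CPM in these sets, and the control means 632 CPM in WT and 1508 CPM in Ctrl. As given above, the call was not kept in every refit without 1 library.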

How the results depend on the processing

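Of the refits of a member's fold change, 505 kept direction and side of the threshold, 19 gained a call, 16 lost it and 29 changed sign, all of these without a call. Trpm3 and Trpm4 in KO vs WT and in the 7 against 7 kept their calls throughout, with adjusted P of at most 0.00169, 0.00651, 0.0361 and 0.000807. Members called in KO vs Ctrl (0) became 1 by DESeq2, with genes of at least 1 count and in the fit of all 14 libraries. Genes called there in all went from 0 to 1191 of 15602, 1658 of 23965 and 648 of 17662, in the same order. In KO vs CreCtrl (2) there were 4 by DESeq2, 0 in the fit of all 14 libraries and 0 to 3 when 1 library was left out, beside 3981 of 16499, 704 of 17662 and 1147 to 5157 genes in all. The interaction of the WT and Ctrl sets (1) gave 2 by DESeq2 and with genes of at least 1 count and 0 to 2 when 1 library was left out, beside 1653, 2262 and 100 to 1459 genes in all (909), and that of the WT and CreCtrl sets (0) gave 2 and 1, beside 907 and 1102 (264). The latter 264 became 4 without CreCtrl replicate 1, 0 without either KO of that set, 12 and 53 without KO replicates 2 and 3 of the WT set, 72 without WT replicate 2 and 432 without Ctrl replicate 1. The 0 genes of the Ctrl and CreCtrl sets (1545 at an unadjusted P under 0.05) became 124 by DESeq2, 883 with genes of at least 1 count and 189, 15 and 2 without Ctrl replicate 1, KO replicate 1 of the Ctrl set and KO replicate 3 of the WT set.

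The replicate block left the 0 of KO vs Ctrl and took the interaction of the WT and Ctrl sets from 1 to 0 (Trpm3, adjusted P = 0.0714) and KO vs WT from 3 to 2 (Trpm1, 0.0526), and KO vs CreCtrl from 2 to 3 (Trpm1, 0.022, edgeR). It raised genes called in KO vs CreCtrl from 2529 to 3824 and in KO vs Ctrl from 0 to 113. Genes called in the interaction of the WT and Ctrl sets went from 909 to 445 under it, and in KO vs WT from 5419 to 4857. Deviations of same-numbered libraries correlated at -0.02, 0.04 and 0.13 for WT, 0.001 for Ctrl and 0.13 for CreCtrl, and the labels give the numbers no shared origin, so they were not taken as pairs. Trpm7 changed sign in the 7 against 7 under the block (0.0036), in KO vs WT with genes of at least 1 count (0.030) and in the fit of all 14 libraries (0.086), and in KO vs Ctrl by library size alone (-0.0014).

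With 1 library left out, uncalled values crossed 0 in these ranges: Trpm7, -0.19 to 0.25 in KO vs WT, -0.053 to 0.34 in KO vs Ctrl, -0.089 to 0.082 in the 7 against 7 and -0.22 to 0.26 for the WT less Ctrl sets. Trpm1 ran from -1.17 to 0.13 in KO vs Ctrl, -0.17 to 0.20 in the 7 against 7 and -0.44 to 0.94 for the Ctrl less CreCtrl sets. Trpm2 ran from -1.14 to 1.43 in KO vs Ctrl and -0.53 to 0.54 for the WT less CreCtrl sets. With the longest transcript as length, the median RPKM became 40.6 for Trpm1, 124 for Trpm3, 2.15 for Trpm4 and 26.9 for Trpm7. Library size alone took the genes called higher and lower from 2490 and 2929 to 1716 and 3942 in KO vs WT, from 575 and 1954 to 219 and 2757 in KO vs CreCtrl and from 3276 and 3112 to 1499 and 4769 in the 7 against 7. The causes were not tested. The 2 libraries a group in the Ctrl and CreCtrl sets, and Trpm2 at 0 to 65 counts, limit the precision.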
